A study of Mus musculus with 42 samples.

Results

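Guanylate-binding proteins (GBPs) and immunity-related GTPases (IRGs) are 2 families of interferon-induced GTPases with which mouse macrophages attack the vacuoles and the surface of intracellular microbes. GBPs are large GTPases that assemble into coats on bacteria and pathogen-containing vacuoles and help caspase-11 and other inflammasome components detect bacterial lipopolysaccharide (LPS) and DNA. Among the IRGs, Irgm1, Irgm2 and Igtp (also called Irgm3) sit on the cell's own membranes and keep the effector IRGs in their inactive state, while Iigp1 (Irga6) is an effector that oligomerises on the vacuole membrane of parasites such as Toxoplasma. Transcription of both families is known to be induced by interferon-γ and by type I interferon.

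The 8 genes described here are Gbp2, Gbp3, Gbp5, Gbp7, Irgm1, Irgm2, Igtp and Iigp1, taken by symbol from the 54532 genes of the count table, and all 8 were among the 17648 genes (32.4%) that passed a filter on low counts. RNA was sequenced in bulk from 42 cultures of bone marrow-derived macrophages (BMDM) of wild-type male C57BL/6 mice, grown from whole marrow with macrophage colony-stimulating factor and not described as sorted. Donor mice belonged to a young class of 10 to 12 weeks and an aged class of 18 to 20 months, and cells of both ages went through the same 6 treatments, giving 12 groups. Control cells received 0.1% normal saline over 24 h, with RNA taken on day 3. β-glucan, a fungal wall polysaccharide sensed by Dectin-1, was given at 5 µg/mL, with exposures of 4 h or 24 h, or of 24 h followed by collection on day 3. LPS was used at 100 ng/mL for 4 h, either alone or after β-glucan. Young control and young LPS groups held 6 libraries each and the other groups 3, called biological replicates in the labels, which do not say whether each is a separate mouse, so p-values measure the spread between these libraries. The control time matches day 3, so the 4 h and 24 h β-glucan groups also differ from the controls in collection time. For cells given LPS alone the labels give neither saline nor a day 3 entry, so LPS alone may differ in culture time from the controls and from cells given LPS after β-glucan.

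Each library held between 39850835 and 67347866 counts. The macrophage label was borne out by the sum of 7 macrophage markers (Adgre1, Csf1r, Cd68, Itgam, Mertk, Fcgr1 and Lyz2), which lay between 22782 and 36493 CPM (counts scaled to a common library size) in every library, while 8 or 9 of 10 T and NK cell markers had no count in any given group. The other cell type lists, for neutrophils, B cells, dendritic cells, stromal cells, mast cells and basophils, and erythroid cells, each summed to at most 111 CPM in a library. In bulk RNA, fewer cells of a type and less RNA per cell cannot be told apart.

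The 4 GBP genes lie in a cluster on chromosome 3 of the mm10 build, on the plus strand, at chr3:142493978-142522344 (Gbp5), chr3:142530342-142550149 (Gbp7), chr3:142560026-142573209 (Gbp3) and chr3:142620602-142638008 (Gbp2). Igtp (chr11:58199556-58207591) and Irgm2 (chr11:58199618-58222782) lie on the plus strand of chromosome 11 and Irgm1 (chr11:48861968-48871683) on its minus strand. All 8 are annotated as protein-coding. In the mouse annotation used for checking, Irgm2 and Igtp overlap on the same strand and share 162 exon bases, which are 4.39% of the exon bases of Irgm2 and 8.01% of those of Igtp. Gbp7 shares 637 exon bases (11.3%) with Gm43802 on the same strand. Of all 50-base windows of the transcripts, 11.8% for Igtp, 7.83% for Irgm2 and 12.7% for Gbp7 also occur in another gene, mostly in these overlapping partners, against at most 3.75% for the other 5 genes. How the authors' counting split such reads is not given in the sources used here, so part of the levels of Igtp, Irgm2 and Gbp7 is uncertain.

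RefSeq promoter windows (GRCm38.p6, 250 bases before to 50 bases after the annotated start) were matched for 7 of the 8 genes, in 8 windows, since Gbp3 has 2. Each of the 7 genes had 1 window with the core of the interferon-stimulated response element (ISRE), searched as GAAA, 2 bases of any kind and GAAA on both strands, a sequence that 3.443% of 32851 RefSeq promoters hold. Stretches of 38 bases around the ISRE cores are shown because all 7 hold the motif. Each is read 5′ to 3′ on the strand that carries the motif, with ISRE cores, overlapping ones merged, and any gamma-activated site (GAS, TTCNNNGAA) in capitals.
Gbp2, chr3:142620590-142620627, minus strand: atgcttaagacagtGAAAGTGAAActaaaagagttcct
Gbp3, chr3:142559985-142560022, minus strand: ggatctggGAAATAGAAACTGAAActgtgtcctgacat
Gbp5, chr3:142496755-142496792, minus strand: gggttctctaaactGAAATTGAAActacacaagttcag
Gbp7, chr3:142530269-142530306, minus strand: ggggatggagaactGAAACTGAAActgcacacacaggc
Irgm1, chr11:48871427-48871464, minus strand: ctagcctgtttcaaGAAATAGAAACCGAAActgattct
Irgm2, chr11:58214899-58214936, plus strand: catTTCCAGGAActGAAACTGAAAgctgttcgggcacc
Igtp, chr11:58199508-58199545, plus strand: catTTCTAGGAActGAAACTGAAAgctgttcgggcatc

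The motif stood on the strand opposite to transcription in the 4 GBP genes and on the transcribed strand in the 3 IRG genes. Its first base lay between 24 and 64 bases before the annotated start in every gene except Gbp5, where it lay 165 bases before. GAS matches were found in the windows of Gbp5, Gbp7, Irgm2 and Igtp, a motif present in 8.298% of all promoters, and these 4 genes therefore held both motifs, as do 0.454% of all promoters. The absence of a GAS match in the windows of Gbp2, Gbp3 and Irgm1 says only that these letters do not occur there. The second window of Gbp3, at chr3:142560106-142560405, held no match to either motif. These matches are descriptions of sequence and were not tested for binding.

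**Figure D1:**
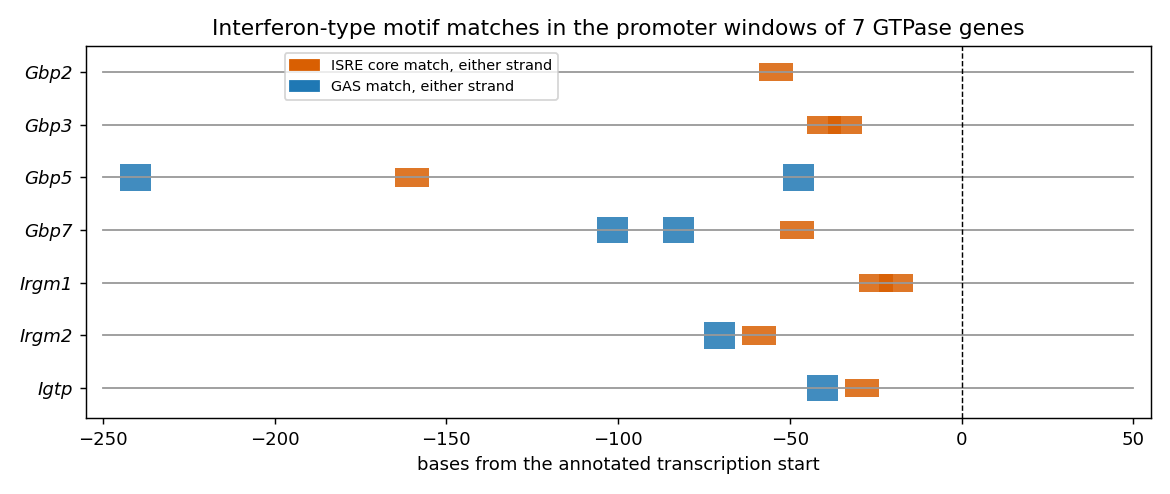
Positions of ISRE core and GAS letter matches (boxes, either strand) relative to the annotated transcription start (0, dashed line) in the promoter windows of 7 genes, in bases. ISRE matches lie within 64 bases before the start in 6 genes and at 165 bases in Gbp5.

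Identity between windows was taken over aligned bases, with 70 to 122 gap bases per pair left out. It was 64.53% to 76.86% for all pairs of genes but Irgm2 and Igtp. The windows of this pair were the most alike, with 93.56% identity over 264 aligned bases (72 gap bases) and an identical run of 61 bases. They are shown in full, with that of Gbp5, which had the largest rise under LPS in both ages, as plus-strand sequence with both motifs in capitals. The ISRE core of Gbp5 appears as its reverse complement. The annotated start in the Irgm2 window, chr11:58214977, lies inside the counted gene, which begins at chr11:58199618, near the start of Igtp. For Gbp5 the start in the window is chr3:142496934, and the counted gene begins at chr3:142493978.
Irgm2, chr11:58214727-58215026: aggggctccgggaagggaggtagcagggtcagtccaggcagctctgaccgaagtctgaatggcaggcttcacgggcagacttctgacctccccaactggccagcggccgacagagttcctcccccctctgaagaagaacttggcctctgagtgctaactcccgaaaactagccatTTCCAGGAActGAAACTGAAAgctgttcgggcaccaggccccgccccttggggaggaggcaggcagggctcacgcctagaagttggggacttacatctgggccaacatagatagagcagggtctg
Igtp, chr11:58199306-58199605: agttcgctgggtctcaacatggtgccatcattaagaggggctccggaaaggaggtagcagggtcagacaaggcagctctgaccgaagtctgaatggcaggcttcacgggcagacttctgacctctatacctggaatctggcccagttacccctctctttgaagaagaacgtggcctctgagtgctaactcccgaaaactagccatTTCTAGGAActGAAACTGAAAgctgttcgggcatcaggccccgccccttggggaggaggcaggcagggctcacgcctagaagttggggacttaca
Gbp5, chr3:142496684-142496983: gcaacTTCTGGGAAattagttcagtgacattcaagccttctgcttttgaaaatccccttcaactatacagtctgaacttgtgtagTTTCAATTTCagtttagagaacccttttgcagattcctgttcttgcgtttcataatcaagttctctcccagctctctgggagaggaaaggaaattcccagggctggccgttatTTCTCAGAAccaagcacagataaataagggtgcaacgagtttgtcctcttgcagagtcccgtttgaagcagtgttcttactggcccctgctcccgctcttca

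In the saline controls the IRG regulators were the most abundant of the 8 transcripts. Per kilobase of gene length, young controls (mean ± SD, n = 6) had 7.62 ± 1.47 CPM per kb of Irgm2, 6.14 ± 1.22 of Irgm1 and 5.43 ± 0.748 of Igtp. Gbp2 followed with 4.02 ± 1.31 CPM per kb, Gbp3 with 1.95 ± 0.672, Gbp7 with 1.74 ± 0.875, Gbp5 with 0.763 ± 0.299 and Iigp1 with 0.355 ± 0.236. Neighbours in this order lay within 1 SD of each other's range except Gbp2 and Gbp3. Aged controls had the same order, from 7.86 ± 0.925 CPM per kb of Irgm2 to 0.48 ± 0.481 of Iigp1 (n = 3).

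After 4 h of LPS the order was a different one. Gbp2 led in young cells with 1046 ± 69.7 CPM per kb (n = 6), before Gbp5 with 620 ± 51.4, Gbp3 with 399.6 ± 32.5 and Igtp with 393 ± 42.8. Irgm2, the most abundant in controls, came after these with 222 ± 27.2 CPM per kb, close to Irgm1 with 219 ± 19.1 and Iigp1 with 196 ± 24.8, and Gbp7 had 141 ± 11.1. The length of Iigp1 is 3121 bases in the count table and 5823 exon bases in the annotation used for checking, and with the latter, an alternative added after seeing the data, Iigp1 had 105 ± 13.3 CPM per kb and was the lowest of the 8. The same 4 genes led in aged LPS cells, from 1018 ± 122 CPM per kb of Gbp2 to 362 ± 21.4 of Igtp (n = 3). Gbp5, among the least abundant in the controls, thus rose above genes that had exceeded it there, while the place of Iigp1 depends on the length used.

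**Figure D2:**
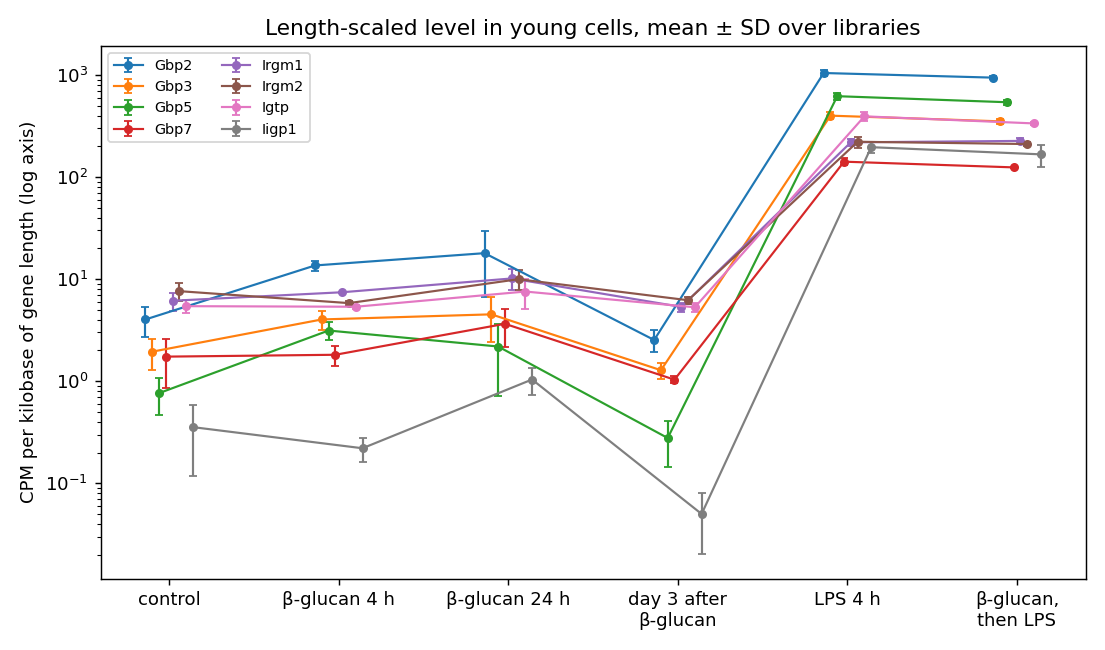
Length-scaled level (CPM per kilobase of gene length, log axis) of each gene in the 6 groups of young cells, as mean ± SD over 6 libraries for control and LPS and 3 for the others; lines only join points of 1 gene. Irgm2 is highest in controls and Gbp2 after LPS, with Gbp5 rising from 0.763 to 620.

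LPS raised every one of the 8 genes at both ages. In young cells the largest rises were those of Gbp5, a lipid-anchored GBP linked to NLRP3 inflammasome assembly, Iigp1, the vacuole effector, and Gbp2, a lipid-anchored GBP recruited to parasite vacuoles. The smallest were those of the regulators Irgm1 and Irgm2. All 8 were called higher at each age by edgeR's quasi-likelihood test with Benjamini-Hochberg adjustment (threshold 0.05), where 30.3% of all tested genes were called higher in young cells and 26.6% in aged cells. Of all genes, 5352 were called higher and 6126 (34.7%) lower in young cells, against 2581 and 10756 when libraries were scaled by total counts, which lowered the median of all genes by a further log2 shift of -0.80. On that scale the young changes of the 8 genes ran from 4.05 (Irgm2) to 8.85 (Gbp5).

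Gbp5 stood at 2.15 CPM in the lowest, 4.79 in the median and 7.79 in the highest young control library, and at 3819, 3993 and 4668 CPM after LPS. Its log2 fold change was 9.66 ± 0.51 (SE), an 809-fold rise (adjusted p = 4.93e-17, edgeR). In aged cells Gbp5 was at 2.18, 6.27 and 3.09 CPM in the controls and at 3902, 3680 and 3750 CPM after LPS, a log2 fold change of 9.95 ± 0.73. The LPS libraries of each age lay far above all of its controls and within 1.22-fold of each other at most.

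Iigp1, on chromosome 18 (chr18:60376029-60392627, plus strand), was barely counted in controls, with 0.39, 0.849 and 2.4 CPM as lowest, median and highest of the young controls, and reached 513, 612 and 735 CPM after LPS (log2 fold change 9.14 ± 0.44, adjusted p = 4.14e-18, edgeR). Aged controls spread widely for this gene, at 1.03, 3.17 and 0.281 CPM, and aged LPS libraries held 903, 712 and 598 CPM (log2 9.06 ± 0.61). Iigp1 was also the gene with the widest spread among LPS libraries, 2.67-fold over the 15 that received LPS.

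Gbp2 went from 7.2, 9.44 and 16.2 CPM in young controls to 2389, 2658 and 2843 CPM (log2 8.03 ± 0.42), and from 7.77, 14.7 and 7.62 CPM in aged controls to 2908, 2325 and 2453 CPM (log2 8.01 ± 0.60). Gbp3, another GBP of the cluster, went from 4.24, 5.70 and 9.84 CPM to 1132, 1332 and 1411 CPM in young cells (log2 7.68 ± 0.29), with 7.42 ± 0.41 in aged cells. Gbp7, which in mouse macrophages has been linked to assembly of the phagocyte oxidase and to autophagy, went from 2.17, 10.2 and 16.4 CPM to 705, 798 and 863 CPM (log2 6.38 ± 0.34), with 5.89 ± 0.47 in aged cells. The young control spread of Gbp7 was the widest of the 8 at 7.57-fold, through replicate 5 at 2.17 CPM.

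Igtp, the regulator found at the endoplasmic reticulum and lipid droplets, rose more than Irgm2, the gene with the promoter window most like its own. Igtp went from 9.52, 10.8 and 13.7 CPM to 710, 774 and 945 CPM in young cells, a log2 fold change of 6.18 with a 95% interval of 5.88 to 6.47. Irgm2 went from 20.6, 27.1 and 35.9 CPM to 723, 803 and 999 CPM, a log2 fold change of 4.86 with an interval of 4.57 to 5.15. The intervals did not overlap, and reads shared between these genes limit how exactly either change is known. The counted Irgm2 gene begins near the start of Igtp and not at the Irgm2 window. From which start the Irgm2 reads come was not tested. Irgm1, the regulator needed for control of mycobacteria and for normal mitochondrial turnover, went from 24.9, 35.2 and 45.1 CPM to 1182, 1234 and 1488 CPM (log2 5.16 ± 0.14). Aged cells gave 5.97 ± 0.21 for Igtp, 4.72 ± 0.20 for Irgm2 and 5.12 ± 0.20 for Irgm1.

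The LPS libraries formed a separate level for each gene. Within an age, 21.9% of tested genes in young and 28.1% in aged cells had all libraries with LPS alone above all controls. For the wider separation of 15 from 27 libraries, the share over all genes was not taken. The lowest of the 15 libraries with LPS exceeded the highest of the 27 without it by 14.3-fold for Irgm2, 15.5-fold for Irgm1, 23-fold for Gbp7, 30.2-fold for Gbp2, 30.8-fold for Igtp, 50-fold for Gbp3, 74.3-fold for Iigp1 and 118-fold for Gbp5. Counts of the 8 genes together were 0.774% to 1% of all counts of a library with LPS and 0.00889% to 0.0327% of one without. Dendritic cell markers moved with LPS as well, their sum being 8.37 to 15.1 CPM with LPS and 0.772 to 4.38 CPM without, and their part in the result was not tested. In the authors' deposited FPKM values the log2 ratio of group means was 9.71 for Gbp5 and 4.91 for Irgm2 in young cells. These values are not scaled by total counts alone, so they do not check the changes against that scaling.

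**Figure D3:**
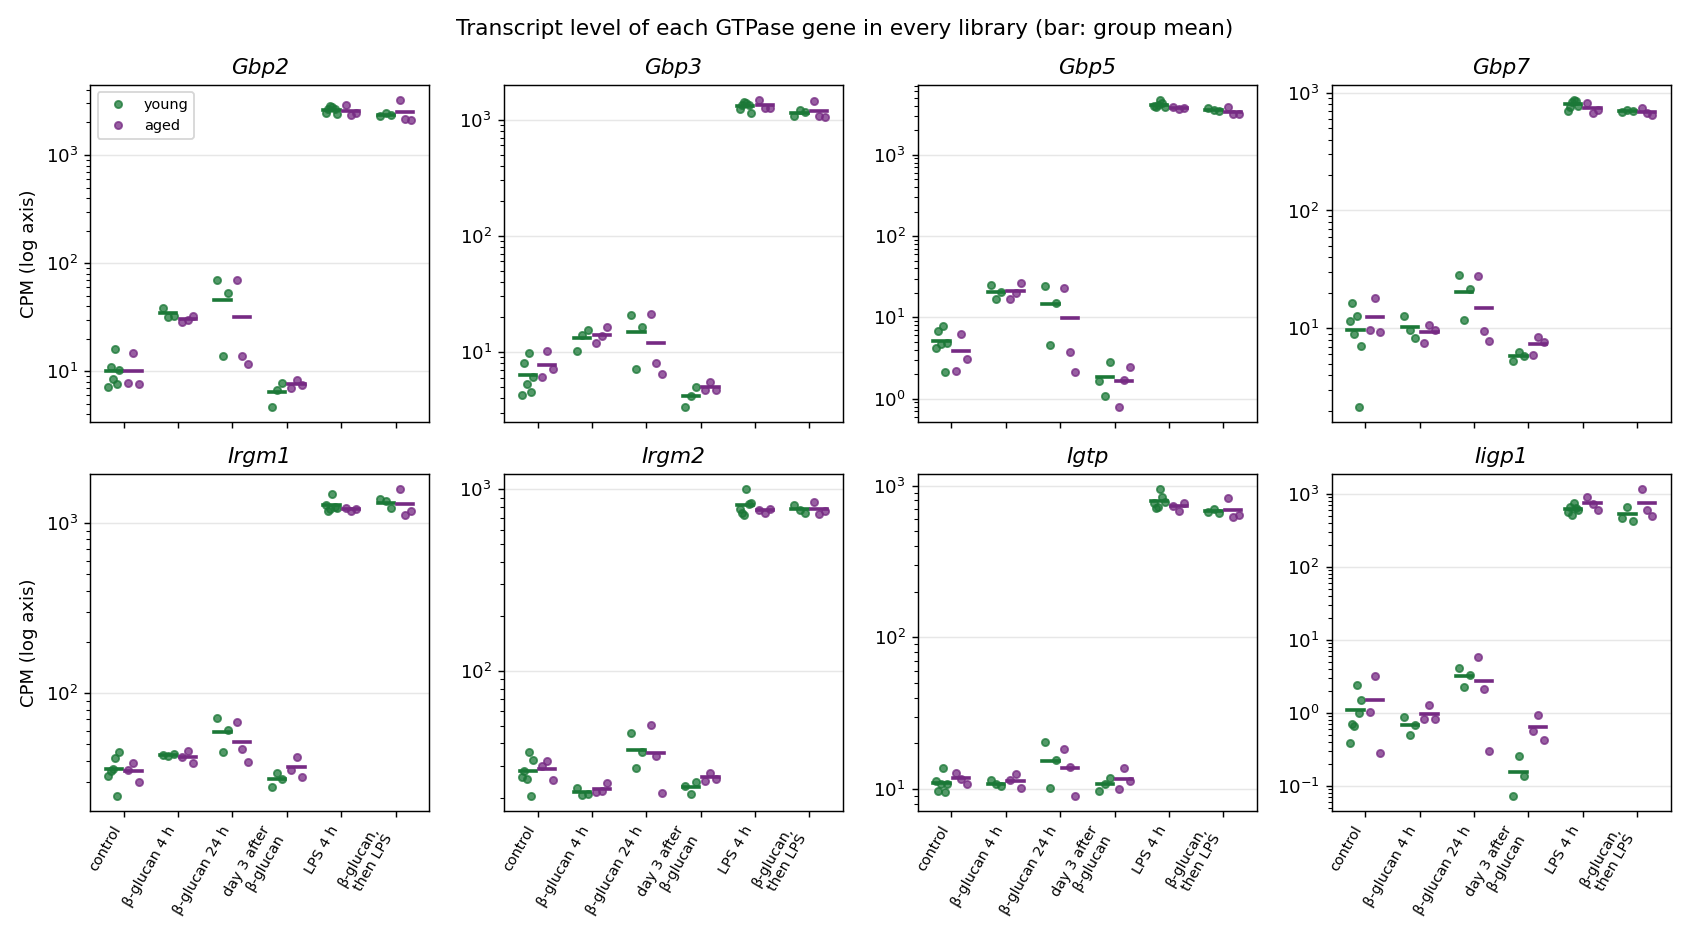
Level of each gene in every library (CPM, log axis) by treatment, young in green and aged in purple, with a bar at the group mean. Libraries with LPS lie above all others in every panel. In aged cells the 24 h β-glucan group has the widest spread from lowest to highest library in every panel. In young cells the controls spread more than the 24 h group for Gbp7 (7.57-fold against 2.39-fold), Iigp1 (6.16-fold against 1.83-fold), Irgm1 and Irgm2.

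Without LPS, β-glucan for 4 h raised some of the GBP genes. In young cells 3 of 8 genes, Gbp2, Gbp3 and Gbp5, were called higher, against 7.45% of all tested genes, and none was called lower, against 4.61% of all genes (edgeR). Of all genes 1314 were called higher and 814 lower, against 867 and 1588 under total-count scaling. In aged cells Gbp2 and Gbp5 were called higher, against 4.87% of all genes. The control libraries are shared by the 4 h, 24 h, day 3 and LPS comparisons of an age.

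Gbp2 was at 38.6, 31.8 and 32.3 CPM in the young 4 h libraries (log2 fold change 1.83 ± 0.43, adjusted p = 0.0033, edgeR) and at 28.7, 29.9 and 32.2 CPM in the aged ones (1.60 ± 0.47, adjusted p = 0.035). Gbp5 was at 25, 16.7 and 20.8 CPM in young cells (2.05 ± 0.49, adjusted p = 0.0044) and at 16.6, 19.9 and 26.5 CPM in aged cells (2.46 ± 0.58, adjusted p = 0.0055). Gbp3 was at 10.1, 14 and 15.3 CPM in young cells (1.08 ± 0.32, adjusted p = 0.021) and at 12, 13.7 and 16.4 CPM in aged cells (0.86 ± 0.34, adjusted p = 0.16). For these 3 genes every 4 h library lay above every control of its age, a separation that 8.49% of tested genes showed in young cells and 12.7% in aged cells. The aged Gbp3 libraries were thus apart from their controls without passing the adjusted threshold. Young Gbp3 lost its call without control replicate 1 or 3 or 4 h replicate 2 or 3, and aged Gbp2 without control replicate 1 or 3 or any 1 of its 4 h libraries.

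Gbp7, from the same cluster, was not called at 4 h, at 12.7, 9.58 and 8.25 CPM in young cells (log2 -0.05 ± 0.39, adjusted p = 0.97, edgeR) and 7.54, 10.7 and 9.75 CPM in aged cells (-0.41 ± 0.42, adjusted p = 0.76). None of the IRG genes passed the threshold, with log2 values from -0.43 for Iigp1 to 0.33 for Irgm1 in young cells and from -0.52 for Iigp1 to 0.27 for Irgm1 in aged cells. Irgm2 was at 22.8, 20.6 and 21 CPM in young cells (-0.28 ± 0.17, adjusted p = 0.35) and at 21.7, 21.8 and 24.1 CPM in aged cells (-0.36 ± 0.18, adjusted p = 0.33), where all 3 libraries lay below the aged controls, as did 9.78% of tested genes.

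At 24 h of β-glucan the young cells had more of the family raised, IRG genes included. Gbp2, Gbp3, Gbp5, Irgm1, Irgm2, Igtp and Iigp1, 7 of 8, were called higher, against 7.79% of all tested genes (edgeR). The count was 4 with total-count scaling, 3 without the count filter and 4 without the term for young replicates 4 to 6. It was 4 when only young replicates 1 to 3 were used and 1 when these groups had their own fit. Of all genes, 1375 were called higher in the main fit and 855 with total-count scaling. Gbp7 had a log2 fold change of 0.96 ± 0.37 (adjusted p = 0.097). In aged cells 1 of 8 was called higher, Gbp2, against 4.02% of all genes. The difference between the ages in the 24 h change was itself tested, and none of the 8 genes passed at an adjusted p or at an unadjusted p below 0.05, with differences (aged minus young) from -0.80 ± 0.85 for Iigp1 to -0.17 ± 0.77 for Gbp5.

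Young Gbp2 was at 69.5, 13.8 and 52.3 CPM in replicates 1, 2 and 3 (log2 2.23 ± 0.43, adjusted p = 0.00058, edgeR), and aged Gbp2 at 69.6, 13.7 and 11.55 CPM (1.67 ± 0.47, adjusted p = 0.033). Irgm1 was at 71.4, 44.7 and 60.8 CPM in young cells (0.78 ± 0.16, adjusted p = 0.00093) and at 67.9, 47.1 and 39.3 CPM in aged cells (0.56 ± 0.17, adjusted p = 0.051). Iigp1 was at 4.18, 2.29 and 3.26 CPM in young cells (1.80 ± 0.57, adjusted p = 0.038) and at 5.75, 2.12 and 0.299 CPM in aged cells (1.00 ± 0.62, adjusted p = 0.42). Aged Irgm1 was the 1 gene whose 24 h libraries all lay above the controls, as 12% of tested genes did. Replicate 1 was the highest 24 h library for 8 of 8 genes at both ages, and the lowest was replicate 2 in young and replicate 3 in aged cells, again for 8 of 8.

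For the other genes the young changes at 24 h were 1.24 ± 0.31 for Gbp3 (adjusted p = 0.0082), 1.53 ± 0.50 for Gbp5 (adjusted p = 0.046), 0.56 ± 0.17 for Igtp (adjusted p = 0.03) and 0.50 ± 0.17 for Irgm2 (adjusted p = 0.0497), all by edgeR. Gbp5 was at 24.1, 4.63 and 14.8 CPM in these libraries and Irgm2 at 45.4, 29.1 and 36 CPM. The highest and lowest library thus differed 5.2-fold for Gbp5 and 1.56-fold for Irgm2.

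Individual libraries show how uneven the 24 h groups were, and the unevenness was not limited to the 8 genes. A chi-square per degree of freedom, taken for each pair of whole libraries, measured how far their counts differed. It was 99.1 and 77.1 for young replicate 2 against replicates 1 and 3, and 13.6 between those. It was 98.3 and 86.8 for aged replicate 1 against replicates 2 and 3, and 15.03 between those. Young controls reached 155.8, between replicates 2 and 5. In young cells replicates 1 and 3 exceeded all 6 controls for 8 of 8 genes, as 19.5% and 18.7% of all tested genes did, while replicate 2 lay inside the control range for 8 of 8. For no gene were all 3 young libraries above all controls, a separation that 5.11% of tested genes showed. In aged cells replicate 1 exceeded the controls for 8 of 8 genes, replicate 2 for 3 and replicate 3 for 1, where 32.6%, 26.8% and 27.8% of all tested genes did, and replicate 3 lay below them for 4, where 25.5% of all genes did. Without young replicate 1 the count of genes called higher was 2 of 8, and without young replicate 2 it was 8 of 8. Calls over all genes, in either direction, moved the same way, from 2037 to 772 without young replicate 1 and to 2995 without young replicate 2. Without aged replicate 1 none of the 8 genes was called, and calls over all genes went from 922 to 312. The change of Gbp2 was then 0.35 (adjusted p = 0.81, edgeR), and the values of Gbp3, Gbp5, Gbp7, Irgm2, Igtp and Iigp1 turned negative, from -0.51 for Gbp7 to -0.02 for Igtp. Without aged replicate 3 the count among the 8 genes was 3, and without aged control replicate 1 or 3 it was 0. Without young replicate 3 it was 2, and without young control replicate 1, 2 or 3 it was 4.

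Sums of 10 neutrophil markers, of which 4 had no count in either 24 h group, ran opposite to the 8 genes among these libraries, at 7.38, 16.9 and 11.3 CPM in young replicates 1, 2 and 3 and at 7.64, 12.7 and 16.4 CPM in aged ones, and their part was not tested. Macrophage marker sums were 28266, 30002 and 31257 CPM in young and 26820, 26578 and 28632 CPM in aged libraries. Total counts were 43854880, 46936229 and 40621260 in young and 49719417, 52860745 and 42433774 in aged libraries.

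**Figure D4:**
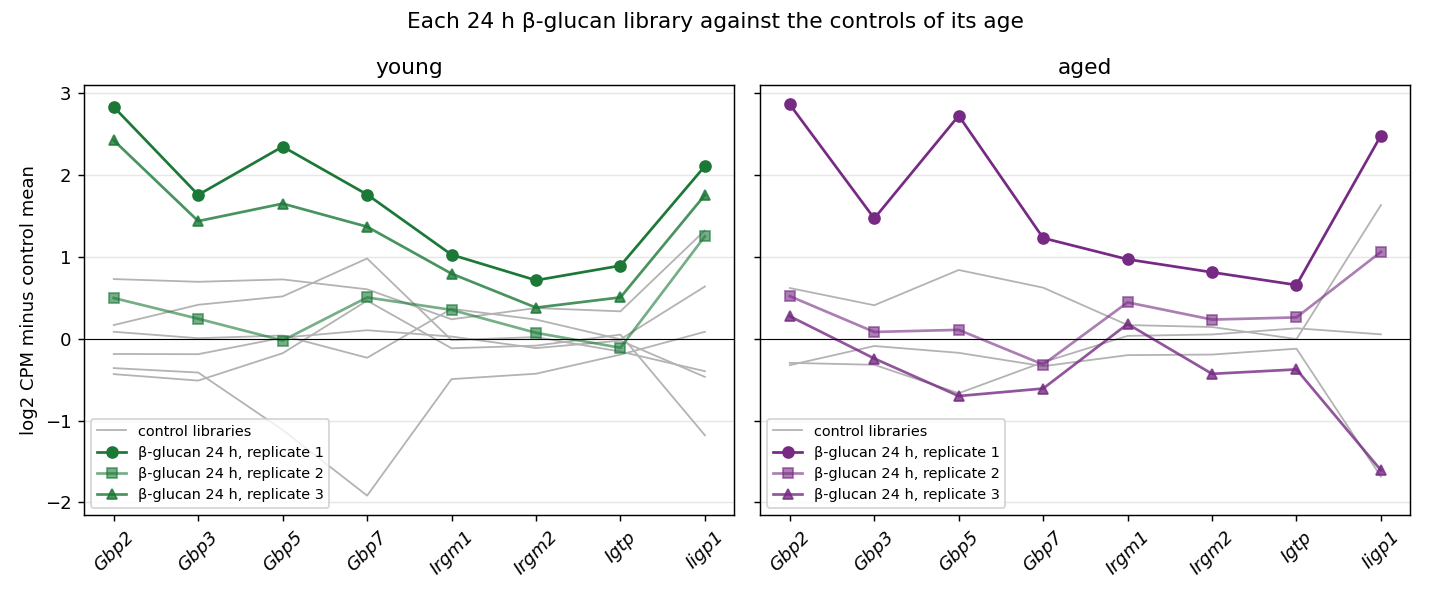
Log2 CPM of each gene in the 24 h β-glucan libraries minus the control mean of the same age, with the control libraries as grey lines. Replicate 1 is highest for all 8 genes at both ages, and young replicate 2 overlaps the controls. Aged replicate 2 lies above the control range for 3 genes and below it for 0. Aged replicate 3 lies above that range for 1 gene and below it for 4.

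By day 3 after β-glucan none of the family differed detectably from controls. No gene was called at either age by edgeR, where 0.782% of all genes were called in either direction in young cells and 0.221% in aged cells. At an unadjusted p below 0.05 the count was 3 of 8 in young and 0 of 8 in aged cells, where 1678 and 1364 of all 17648 tested genes passed, and DESeq2 called 1 in young cells, Iigp1, and 0 in aged cells. Log2 values ran from -2.49 to 0.05 in young and from -1.23 to 0.07 in aged cells.

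Iigp1 was the gene furthest below control in young cells, at 0.0735, 0.257 and 0.137 CPM against a lowest control of 0.39 CPM. These levels rest on 4 to 17 counts a library. Its log2 fold change was -2.49 ± 1.03 (adjusted p = 0.38, edgeR; 0.037 with DESeq2), and it was the only gene of the 8 whose day 3 libraries all lay under the young controls, as 2.89% of tested genes did. Gbp5 was at 1.65, 1.07 and 2.79 CPM in young cells (log2 -1.45 ± 0.62, adjusted p = 0.42) and at 0.801, 1.68 and 2.45 CPM in aged cells (-1.23 ± 0.69, adjusted p = 0.72), overlapping the controls at both ages. The aged day 3 libraries of Iigp1 held 0.566, 0.946 and 0.42 CPM (-1.11 ± 0.79, adjusted p = 0.82) and also overlapped. In aged cells the day 3 libraries of 2 genes, Gbp3 and Gbp7, all lay under the controls, as did those of 6.28% of tested genes.

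Set directly against 24 h, the day 3 libraries were lower for 7 of 8 genes in young cells, all but Igtp, where 3.77% of all tested genes were called lower (edgeR). The falls were largest for Iigp1 (log2 -4.30 ± 0.91, adjusted p = 0.0035), Gbp5 (-2.98 ± 0.63, adjusted p = 0.0035) and Gbp2 (-2.82 ± 0.50, adjusted p = 0.00048), and smallest among those called for Irgm2 (-0.68 ± 0.18, adjusted p = 0.022). Igtp had -0.51 ± 0.19 (adjusted p = 0.13). In aged cells Gbp2 (-2.07 ± 0.48, adjusted p = 0.014) and Gbp5 (-2.59 ± 0.65, adjusted p = 0.025) were called lower, against 1.87% of all genes. Without aged 24 h replicate 1 these values were -0.74 for Gbp2 and -0.89 for Gbp5, both uncalled, and both calls were also lost without any 1 of the aged day 3 libraries. In young cells the call of Irgm2 was lost in 5 of 6 fits that left out 1 library of either group, all but the one without 24 h replicate 2, that of Gbp7 without 24 h replicate 1 or day 3 replicate 1 or 3, and that of Gbp5 without 24 h replicate 1.

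Between 4 h and 24 h of β-glucan, Irgm2 (0.78 ± 0.18, adjusted p = 0.0056) and Iigp1 (2.24 ± 0.71, adjusted p = 0.048) were the 2 genes called higher in young cells, where 3.8% of all genes were (edgeR). In aged cells Irgm2 alone was called higher (0.65 ± 0.18, adjusted p = 0.035), against 1.5% of all genes. Leaving out replicate 1 of the 24 h group ended the call of Irgm2 at both ages, with values of 0.60 in young and 0.30 in aged cells. The young call of Iigp1 was lost in 5 of 6 fits that left out 1 library of either group, all but the one without 24 h replicate 2, with values of 2.01 to 2.45. The aged call of Irgm2 was also lost in 5 of 6, all but the one without 24 h replicate 3.

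**Figure D5:**
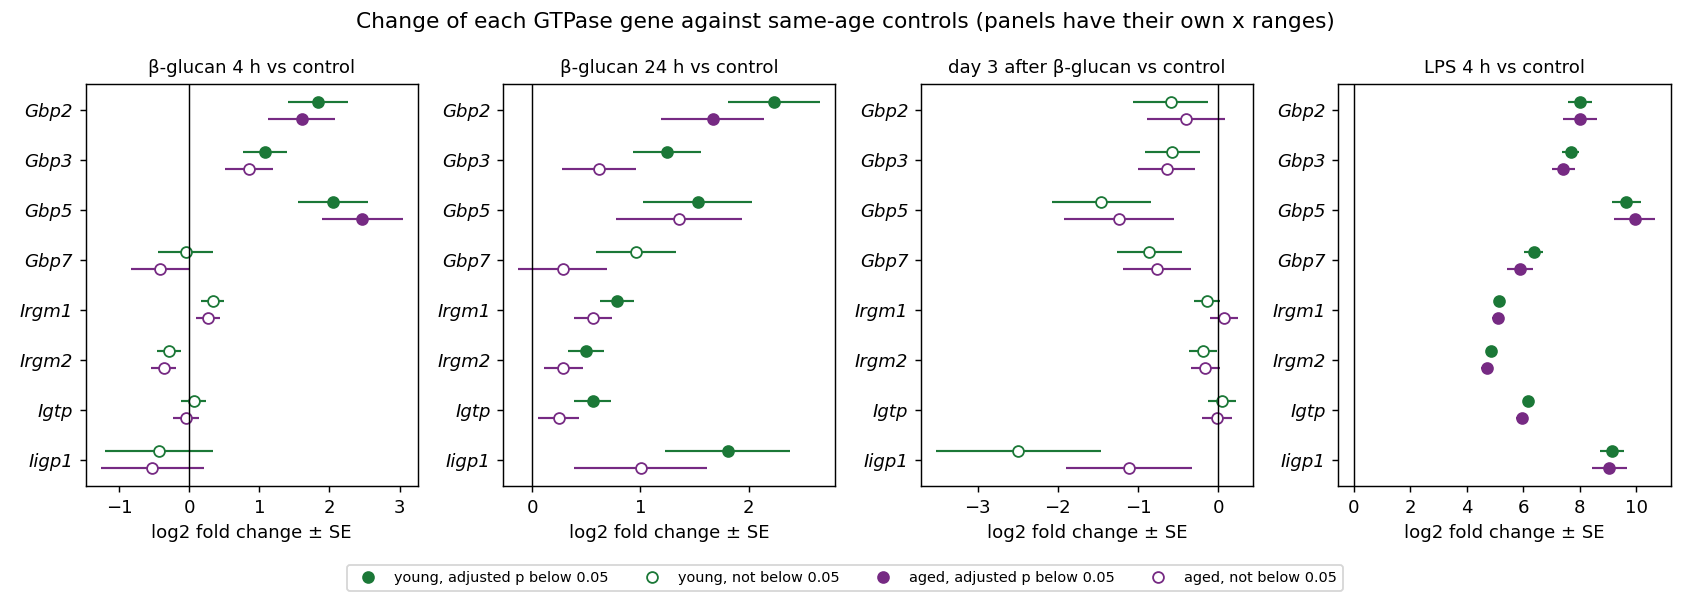
Log2 fold change ± SE of each gene against controls of the same age for 4 comparisons, young in green and aged in purple, filled where the adjusted p is below 0.05 (each panel has its own x range). Gbp2, Gbp3 and Gbp5 are highest at 4 h, more genes are filled at 24 h in young cells, none on day 3 and all under LPS.

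Earlier β-glucan was followed by no detectable shift of the LPS level of these genes. When cells that had received β-glucan beforehand were given LPS, none of the 8 genes differed from LPS alone in young cells, where 3.61% of all tested genes did, nor in aged cells, where 0.986% did (edgeR). No gene passed at an unadjusted p below 0.05 either, and DESeq2 called none. The median log2 difference of the 8 genes was -0.11 in young and -0.06 in aged cells, against -0.001 and -0.006 for all tested genes.

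In young cells the differences ran from -0.33 for Gbp7, with a 95% interval of -1.04 to 0.39, to 0.10 for Irgm1, with an interval of -0.21 to 0.41. These young values are adjusted by the term for young replicates 4 to 6, which is estimated from the controls as well as the LPS libraries. Gbp7 had group means of 698 CPM after β-glucan and LPS and 794 CPM with LPS alone. In aged cells the differences ran from -0.16 for Gbp5, with an interval of -1.11 to 0.79, to 0.09 for Irgm1, with an interval of -0.24 to 0.42. The intervals of the GBP genes therefore still allow changes of up to about 1 log2 unit. Young Gbp5 was at 3798, 3530 and 3444 CPM after β-glucan and LPS, under the lowest of the 6 libraries with LPS alone (3819 CPM). Young Igtp was at 673, 698 and 663 CPM, also under the lowest with LPS alone (710 CPM), and 6.22% of all tested genes were apart in this direction. The aged group held 1 high library: replicate 1 was the highest of 3 for 8 of 8 genes, with 3213 CPM of Gbp2 against 2161 and 2097 and 1141 CPM of Iigp1 against 596 and 502.

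Measured from the day 3 level, LPS raised 8 of 8 genes in cells exposed to β-glucan earlier, by 5.08 ± 0.21 (Irgm2) to 11.63 ± 0.74 (Iigp1) log2 units in young cells and by 4.92 ± 0.21 (Irgm2) to 11.03 ± 0.78 (Gbp5) in aged cells. Of all tested genes 24.9% and 24.8% were called higher in these comparisons (edgeR).

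No difference between the ages was called for any of the 8 genes. Aged cells were compared with young cells in each of the 6 treatments, and the change against control was compared between ages for 4 h, 24 h, day 3 and LPS and for LPS with and without earlier β-glucan. No gene was called in any of these 11 comparisons by edgeR or by DESeq2, and none passed at an unadjusted p below 0.05, where the share of all genes called was 0.442% in controls, 0.00567% at 4 h, 0.017% at 24 h, 0.0113% on day 3, 0.895% under LPS and 0.0283% under LPS after β-glucan, and 0% or 0.00567% for the differences in change. In controls the differences (aged minus young) ran from -0.42 ± 0.53 for Gbp5 to 0.36 ± 0.36 for Gbp7 with Iigp1 at 0.35 ± 0.61, and under LPS from -0.12 to 0.27. At day 3, Iigp1 was at 0.0735, 0.257 and 0.137 CPM in young and 0.566, 0.946 and 0.42 CPM in aged cells, so that the libraries did not overlap, and its difference was 1.73 ± 1.23 (adjusted p = 1, edgeR). Irgm2 was the other gene without overlap at day 3, with a difference of 0.08 ± 0.19, and 7.44% of tested genes were apart in this direction. Differences between the ages are adjusted by the term for young replicates 4 to 6, also in treatments that lack these replicates. These p-values do not show that the ages are alike.

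The rest of the GTPase families gave a varied picture. Of 7 other GBP genes, 6 were called higher under LPS in each age and none lower (edgeR). Of all tested genes 30.3% were called higher in young and 26.6% in aged cells. The list median was 8.16 in young cells against -0.10 for all tested genes. Gbp9 was at 10.7 CPM in the lowest and 25.6 CPM in the highest young control and at 341 ± 20.2 CPM after LPS (SD, n = 6). At 4 h of β-glucan, when Gbp2 and Gbp5 rose, none of the 7 was called higher, against 7.45% of all genes in young and 4.87% in aged cells. Called lower were 2 in young cells (Gbp8 and Gbp9), against 4.61% of all genes, and 1 in aged cells (Gbp9). In aged cells 1141 of all genes were called in either direction. Gbp9 fell by 0.89 ± 0.22 in young cells (adjusted p = 0.0059) and by 0.89 ± 0.24 in aged cells (adjusted p = 0.017). Its young 4 h libraries held 15.2, 9.56 and 12.5 CPM and overlapped the controls only through control replicate 5. Gbp6 had a log2 value of 0.97 ± 0.70 at 4 h in young cells (adjusted p = 0.45) and rose at 24 h by 2.82 ± 0.55 in young (adjusted p = 0.0007) and 3.13 ± 0.68 in aged cells (adjusted p = 0.0042).

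Of 9 other IRG genes tested, 8 rose and 1 fell under LPS at each age. Of all genes 30.3% rose and 34.7% fell in young cells. The IRG gene that fell was Irgq, a divergent relative, with -0.83 ± 0.09 in young (adjusted p = 2.9e-11, edgeR) and -0.76 ± 0.12 in aged cells. At 4 h in young cells Tgtp1 was called higher and 9930111J21Rik2, 9930111J21Rik1 and Gm5431 lower. Gm5431 had -0.67 ± 0.21 (adjusted p = 0.027, edgeR). At 24 h Tgtp2 and Gm12250 were higher. Of all genes in young cells 7.45% were called higher and 4.61% lower at 4 h, and 7.79% higher at 24 h. Among 5 other large interferon-induced GTPases, all 5 rose under LPS at each age and 3 rose at 24 h in young cells, with Mx1, an antiviral GTPase, at 9.47 ± 0.42 under LPS and 1.58 ± 0.42 at 24 h (adjusted p = 0.013).

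Upstream, the interferon ligands were nearly silent without LPS. Ifnb1, the interferon-β gene, had 0 counts in all 6 young and all 3 aged controls, 4 counts over the 3 young libraries at 4 h of β-glucan, all in 1 library, and 1 count over those at 24 h. Under LPS alone it was at 18.7 ± 6.75 CPM in young (SD, n = 6) and 11.8 ± 2.42 CPM in aged cells (n = 3). After β-glucan and LPS it was at 9.81 ± 2.2 CPM in young cells, with all 3 libraries (8.32 to 12.3 CPM) under those with LPS alone (13.4 to 30.7 CPM). The log2 difference was -0.51 ± 0.30 (adjusted p = 0.42, edgeR), a value adjusted by the term for young replicates 4 to 6. With LPS alone, replicates 1 to 3 held 14.7, 13.7 and 13.4 CPM, and replicates 4 to 6 held 30.7, 17.4 and 22.4 CPM. Ifng, the interferon-γ gene, had no count in any of the 12 groups.

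Among 10 transcription factors of interferon pathways, 9 rose and 1 (Irf3) fell under LPS at each age (edgeR), where 30.3% of all genes rose and 34.7% fell in young cells. At 4 h of β-glucan 2 rose at each age, where 7.45% of all genes rose in young and 4.87% in aged cells. At 24 h 7 rose in young and 2 in aged cells, where 7.79% and 4.02% of all genes did. On day 3 none was called at either age, where 0.782% and 0.221% of all genes were. Irf1, which binds ISRE-like sites, was at 79.6, 73.7 and 107 CPM at 4 h against 24.1 to 43.5 CPM in young controls (log2 1.52 ± 0.20, adjusted p = 1.4e-06) and rose alike in aged cells (1.54 ± 0.22, adjusted p = 1e-05), while its 24 h value in young cells was 0.46 ± 0.21 (adjusted p = 0.16). Irf7, an amplifier of type I interferon responses, had 0.02 ± 0.34 at 4 h and rose by 2.21 ± 0.32 at 24 h (adjusted p = 1.3e-05).

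The order of the 24 h libraries was the same in these genes as in the GTPases. Irf7 was at 61.3, 16.3 and 36.6 CPM in young replicates 1, 2 and 3 and at 48.2, 21.9 and 16.4 CPM in aged ones. Mx1 was at 26.2, 5.52 and 13.3 CPM in young and 19.8, 6.75 and 3.37 CPM in aged libraries.

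The counts under LPS in the following lists stand beside 30.3% of all tested genes called higher and 34.7% lower in young cells. Of 7 interferon receptor and kinase genes, 5 rose under LPS in young and 6 in aged cells and 1 fell at each age, Ifngr1, a subunit of the interferon-γ receptor, by 0.96 ± 0.07 in young cells. All 7 feedback inhibitors rose under LPS at both ages, and Socs3 rose at 4 h of β-glucan by 3.33 ± 0.33 in young (adjusted p = 7.7e-09) and 2.76 ± 0.37 in aged cells. Of 14 genes that work with the GTPases at vacuoles, such as the ubiquitin-like conjugation machinery of autophagy, 8 rose and 4 fell under LPS at each age. Of these 14, 4 rose at 4 h in young and 2 in aged cells, where 7.45% and 4.87% of all genes rose. Sqstm1, an autophagy adaptor, rose by 1.70 ± 0.14 at 4 h (adjusted p = 2.1e-11) and 3.19 ± 0.12 under LPS in young cells.

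Of 7 inflammasome genes that GBPs are known to serve, 6 rose and 1 fell under LPS at each age. Casp4, the mouse caspase-11 that senses cytosolic LPS, rose by 1.39 ± 0.10 at 4 h of β-glucan (adjusted p = 3.4e-14) and by 4.08 ± 0.08 under LPS in young cells. Pycard, the adaptor ASC, fell by 0.36 ± 0.11 at 4 h (adjusted p = 0.018) and by 0.70 ± 0.08 under LPS. Of the 5 enzymes that attach or process the lipid anchor of prenylated GBPs, Pggt1b, the geranylgeranyl transferase subunit, rose by 0.94 ± 0.08 under LPS in young cells, while Icmt and Fntb fell by 0.67 ± 0.06 and 0.60 ± 0.11, and none was called under β-glucan. In none of these 10 lists was a gene called between LPS with and without earlier β-glucan at either age (edgeR). Of all tested genes 3.61% were called in young and 0.986% in aged cells. Irgq, Tgtp1, Tgtp2, Gm12250, 9930111J21Rik1, Irf1, Irf3, Irf7, Ifngr1, Socs3, Casp4, Pycard and Fntb were picked out of their lists after their values were seen.

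Over the 12 group means, the genes most like the mean profile of the 8 GTPases, among the 8491 genes whose mean log2 CPM reached 3, were Trafd1, Rsad2, Cmpk2, Calhm6, Ifit1, Parp8, Gm12250, AW112010, Ifit2 and Parp14. Pearson's r ran from 0.998 to 0.999, given as a description, since the points share controls and are dominated by the step under LPS. Over the 8 groups without LPS, Trafd1 again had the highest r, 0.982, and Calhm6, AW112010 and Ifit1 were again among the 10 closest genes. The rest of these 10 had not been among the closest over 12 groups. They were Slc43a2 (0.979) and Zdhhc12 (0.969), next after Trafd1, and 2410004B18Rik, Gm11613, Blvrb and Myd88.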

How the data were processed

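Gene counts of 42 libraries were analysed. The authors deposited 1 table of whole-number read counts per gene with FPKM values per library. The FPKM values deposited by the authors are length-scaled and were only set beside the LPS change. The library sizes that they imply were 0.65 to 0.76 of total counts with LPS and 1.13 to 1.28 without. Their scaling is thus like that of the main fit, so they cannot check the change against total-count scaling. Reads were aligned with STAR to mm10, per the submitters' processing notes; versions, the counting program and its strand setting are not given in the sources used here.

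Genes were kept with edgeR's filterByExpr (minimum count 10), scaled by TMM and fitted in 1 quasi-likelihood model of all 12 groups with a term for young replicates 4 to 6 (edgeR 4.0.16, limma 3.58.1, R 4.3.3). Log2 changes that involve young control or young LPS cells are adjusted by this term, as are all differences between aged and young cells. These values can differ from ratios of the group means shown. Benjamini-Hochberg adjustment covered the 17648 genes tested, with a threshold of 0.05. CPM used TMM-scaled library sizes, and log2 CPM a prior count of 2. The code was tested on simulated data. Total counts ran from 39850835 to 67347866 per library. Alternatives were DESeq2 1.42.0, other scalings, no filter, no such term, fewer libraries, a block for replicate number and leaving out each library.

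The members and gene lists were chosen with earlier results of these data known. The 8 genes were always named, with up to 3 genes of highest mean level from each list; exceptions are stated. Same-numbered libraries had deviations from their group means with a median correlation of 0.0121 in young and 0.0416 in aged cells, so the numbers were not taken to pair libraries. Promoter sequences came from RefSeq GRCm38.p6.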

Additional observations from a re-analysis of the deposited data

Results flagged for a closer look

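In young cells given LPS alone, replicate 4 held 1488.4 CPM of Irgm1 and stood apart above the other 5 libraries. On the log2 CPM scale its gap to the nearest of them was 0.658 of the group's whole range. It was the only library to stand apart in the 16 sets of 6 libraries examined (8 genes in young controls and in young LPS cells). Chance alone gives about 1 such library in 20 sets.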

How the results depend on the processing

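Under LPS alone, and under LPS after β-glucan against day 3, 8 of 8 genes stayed called at both ages in every alternative run. The 24 h calls were the least stable. In young cells at 24 h, 7 genes were called, against 4 with total-count scaling, 3 without the count filter, 4 without the term for young replicates 4 to 6, 4 when only young replicates 1 to 3 were used and 1 when each comparison had its own fit, and 2 to 8 when a library was left out. In aged cells at 24 h, 1 was called, against 0 without the filter, 2 with DESeq2, 2 using only young replicates 1 to 3, 0 with a separate fit, and 0 to 3 when a library was left out. Between 4 h and 24 h, the 2 young calls became 1 without the filter, 1 without the term and 1 using only young replicates 1 to 3 (0 to 4 leaving out a library), and the aged call became 0 without the filter and 0 with a separate fit (0 to 1). From 24 h to day 3, the 7 young calls became 3 with a separate fit (4 to 8), and the 2 aged calls 4 with DESeq2 and 0 with a separate fit (0 to 6). At 4 h the 2 aged calls became 1 without the filter and 1 using only young replicates 1 to 3 (1 to 2). On day 3 in young cells DESeq2 called 1 gene where edgeR called 0. Calls over all genes also moved beyond a set ratio in some of the 27 comparisons. This held for 14 with DESeq2, 13 with a separate fit, 9 without the term and 9 with a replicate block. It held for 8 using only young replicates 1 to 3, 2 with total-count scaling and 1 without the filter. Leaving out a library gave 772 to 2995 genes called at 24 h in young cells, against 2037. In aged cells it gave 312 to 1062, against 922. The causes were not tested.

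With a replicate block, 1 gene was called from 24 h to day 3 in aged cells against 2 without it, since Gbp5 had -2.47 (adjusted p = 0.065, edgeR). The block also ended the calls of Gbp5 in young (1.46, adjusted p = 0.078) and Gbp2 in aged cells at 24 h (1.46, adjusted p = 0.084) and gave a call for aged Irgm1 (0.55, adjusted p = 0.023). The replicate numbers were not shown to pair libraries.

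Of the uncalled changes, these turned sign. At 4 h in young cells Gbp7 had 0.059 and Igtp -0.0189 without the term, Igtp -0.0551 with total-count scaling, and Iigp1 0.218 using only young replicates 1 to 3 and 0.219 with a separate fit. On day 3 in young cells Igtp had -0.0351 without the term. Leaving out 1 library gave -0.254 to 0.211 for Gbp7 at 4 h and -0.0195 to 0.119 for Igtp on day 3 in young cells. In aged cells it gave -0.12 to 0.0295 for Igtp and -1.13 to 0.692 for Iigp1 at 4 h. On day 3 in aged cells it gave -0.0415 to 0.158 for Irgm1, -0.142 to 0.092 for Igtp and -1.72 to 0.0989 for Iigp1. At 24 h in aged cells it gave -0.0941 to 0.907 for Gbp3, -0.347 to 1.86 for Gbp5, -0.514 to 0.66 for Gbp7, -0.0612 to 0.547 for Irgm2, -0.0161 to 0.472 for Igtp and -0.105 to 2.22 for Iigp1. For Irgm1 with against without earlier β-glucan in aged LPS cells it gave -0.0827 to 0.186. Depth limits Iigp1 most, with 4 to 17 counts a library on day 3 in young cells.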
